A study of Homo sapiens with 14 samples.

Results

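The transcription factors of the AP-1 complex and the factors induced with them as immediate early genes were followed in SCC23 cells, an established human head and neck squamous cell carcinoma (HNSCC) line. The genes were taken by name from the per-gene read counts: the FOS family (FOS, FOSB, FOSL1 and FOSL2), the JUN family (JUN, JUNB and JUND), and EGR1, IER2 and IER3, which made 10 of 59471 gene names in the count files. RNA-seq of polyA RNA was available for 14 libraries from 2 experiments, in which KMT2D-WT and KMT2D-KO cells were kept in high glucose medium (+Glc) or deprived of glucose for 6 h (-Glc). There were 3 KMT2D-WT and 4 KMT2D-KO libraries in each medium, with 1 KMT2D-WT library in experiment 1, 2 KMT2D-WT libraries (WT1 and WT2) in experiment 2, and 1 library labelled KO1 and 1 labelled KO2 in each experiment. The KMT2D-KO lines were made by transfection with Cas9 and an sgRNA to KMT2D and grown from sorted cells, with no cloning of single cells described, and the control sgRNA of the study targeted LacZ. KMT2D is a histone H3K4 methyltransferase that acts at enhancers. All groups share the SCC23 background. The libraries were not stated to come from separate cultures, so p-values measure the spread between these libraries.

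AP-1 is a dimer of basic leucine zipper (bZIP) proteins, usually a JUN protein with a FOS protein, that binds short sites in promoters and enhancers. Immediate early genes such as FOS, EGR1 and IER2 are switched on within minutes of growth factor, stress or serum signals through ERK, JNK and p38 kinases, mostly without new protein synthesis, and their transcripts are short-lived. In squamous epithelium AP-1 drives genes of proliferation, invasion and keratinocyte differentiation, and FOSL1 is often high in squamous carcinoma.

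The whole series was checked before the members were described. The depth was 15669154 to 62968057 counts per library, and in the 4 libraries of experiment 2 in glucose each mate of a pair counted as a read, while the other 10 held single reads. Within experiment 2 the 2 media therefore also differed in read layout and the 2 cannot be told apart there. The targeted gene, KMT2D, had 279, 266 and 271 CPM (read counts scaled to library size by TMM over all 14 libraries) in KMT2D-WT cells in glucose, 182 and 184 CPM in KO1 and 323 and 373 CPM in KO2. Without glucose it had 239, 233 and 230.5 CPM in KMT2D-WT cells and 19.9, 190.2, 152 and 145 CPM in KMT2D-KO cells. These values, and those of the members, are ordered as KO1 and KO2 (by label) of experiment 1, then of experiment 2, and in KMT2D-WT cells as WT of experiment 1, WT1 and WT2. The transcript level did not separate the KMT2D-KO from the KMT2D-WT libraries in glucose, where KO2 lay above KMT2D-WT. By 20 genes that separated the lines in glucose, both KMT2D-KO libraries of experiment 2 without glucose lay close to KO2 (mean distance 0.399 and 0.425 on the log2 CPM scale) and far from KO1 (3.94 and 3.92), although 1 of them is labelled KO1. KO2 of experiment 1 also lay close to KO2 (0.335), and only the library labelled KO1 of experiment 1 lay close to KO1 (0.601, against 4.15 to KO2). The KMT2D-KO libraries of experiment 2 without glucose, and the KMT2D-WT libraries there, differed within each pair by far less than any other pair of 1 group and experiment (chi-square per gene 1.78 and 1.71, against 25.9 to 83). Calls of the members between genotypes without glucose are therefore also given with each pair summed to 1 library, and those of the gene lists are not. Squamous markers summed to between 500.3 and 2441 CPM per library, with KRT6A near 0, and leukocyte markers summed to at most 0.290 CPM. Fibroblast markers summed to 5.54 to 6.96 CPM in KMT2D-WT and 12.4 to 25.9 CPM in KMT2D-KO cells with glucose, and to 3.08 to 5.53 and 7.20 to 13.9 CPM without. The 3 of 4 tested in glucose (COL1A1, COL1A2 and COL3A1) were called higher in KMT2D-KO cells by edgeR, as was COL1A1 without glucose. Endothelial markers summed to 0.388 to 0.80 CPM in KMT2D-WT and 2.19 to 3.31 CPM in KMT2D-KO cells without glucose, where CDH5 was called higher and PECAM1 was at 0 in all KMT2D-KO libraries. The part of these markers in the results was not tested.

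The library labelled KO1 of experiment 1 without glucose stood apart for 4 members, and the share of all genes for which it did so was not counted. It lay far above its group for FOS, FOSB, EGR1 and IER3, and results that rest on it are given with and without it. It was the highest of its group for FOSL1, JUN, JUNB and IER2 as well, and had the fewest genes with a count of all libraries (22545). It was also the only KMT2D-KO library without glucose that lay close to line KO1, so this library and the line cannot be told apart there, and values without it are those of 3 libraries close to KO2. The spread among these rested largely on the close pairs, and no p is given for the genotype comparison. In glucose the KMT2D-KO libraries held both lines. Medium and line are therefore partly confounded in the deprivation comparison of KMT2D-KO cells and in the contrast between media, and more so when the library labelled KO1 of experiment 1 is left out. In bulk RNA a change in the share of cells that express a gene and a change in RNA per cell cannot be told apart. As 4 members overlap or resemble other loci, their counts are less certain: 52.2% of the IER2 exonic bases overlap other annotated genes, 32.9% of those of IER3 overlap IER3-AS1 or HCG20, 14.2% of those of JUNB overlap HOOK2, and FOSL1 has a pseudogene, FOSL1P1, while reads were counted without regard to strand.

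The promoters of 4 members on which the comparisons turned are shown first, as the 250 bases before the annotated start site (RefSeq, GRCh38.p14). They are FOSB at chr19:45467746-45467995 on the plus strand, JUNB at chr19:12791236-12791485 on the plus strand, JUND at chr19:18281623-18281872 on the minus strand, and EGR1 at chr5:138465229-138465478 on the plus strand, each written 5′ to 3′ on the strand of its gene. Capitals mark the TATA motif TATAAA in FOSB and JUNB, the cyclic AMP response element TGACGTCA in JUND, and CArG boxes, the sites of the serum response factor SRF, in EGR1.
FOSB: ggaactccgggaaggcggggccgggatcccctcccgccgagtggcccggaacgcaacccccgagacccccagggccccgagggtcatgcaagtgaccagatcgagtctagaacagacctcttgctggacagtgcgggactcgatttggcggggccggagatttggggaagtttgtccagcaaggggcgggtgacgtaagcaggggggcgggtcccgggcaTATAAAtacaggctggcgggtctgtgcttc
JUNB: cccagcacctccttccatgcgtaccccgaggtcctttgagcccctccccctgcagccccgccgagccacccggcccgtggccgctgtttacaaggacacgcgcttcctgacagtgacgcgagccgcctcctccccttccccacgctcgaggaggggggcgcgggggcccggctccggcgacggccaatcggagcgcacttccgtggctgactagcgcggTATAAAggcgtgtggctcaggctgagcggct
JUND: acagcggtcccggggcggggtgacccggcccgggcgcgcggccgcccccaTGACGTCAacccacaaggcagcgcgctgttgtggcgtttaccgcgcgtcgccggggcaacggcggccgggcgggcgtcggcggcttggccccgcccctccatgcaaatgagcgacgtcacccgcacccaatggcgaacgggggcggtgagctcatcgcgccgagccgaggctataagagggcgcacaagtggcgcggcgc
EGR1: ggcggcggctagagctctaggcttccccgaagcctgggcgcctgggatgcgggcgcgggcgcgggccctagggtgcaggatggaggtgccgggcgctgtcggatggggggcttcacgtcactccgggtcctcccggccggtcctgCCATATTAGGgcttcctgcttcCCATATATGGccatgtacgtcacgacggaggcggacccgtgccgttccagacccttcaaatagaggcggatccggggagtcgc
Over windows of 250 bases before to 50 bases after the start, searched on both strands, 8 of the 10 members were in the promoter table, FOSL1 and IER3 being the others. CArG boxes lay 105 and 83 bases before the start of EGR1, and 1.29% of the 35116 promoters of the table held 1 or more. The JUND element lay 200 bases before the start, and 1.85% of all promoters held TGACGTCA. TATAAA was found in FOS, FOSB and JUNB, between 30 and 33 bases before the start, against 11.5% of all promoters. The AP-1 site TGANTCA was found in the window of FOSL2 only, against 7.71% of all promoters. The core TGACG, which is also part of TGACGTCA, was present in all 8 windows, against 24.6% of all promoters, and the GC box GGGCGG in 6 of 8, against 45.0%. The EGR1 site GCGTGGGCG was in none of the 8 windows and in 0.795% of all promoters.

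Levels were compared between genes as CPM per kb of exonic length. In KMT2D-WT cells in glucose FOSL1 was the highest member, at 294 ± 62.0 CPM per kb (mean ± SD, n = 3), followed by IER3 at 81.4 ± 36.0, JUNB at 48.8 ± 20.4, EGR1 at 41.3 ± 10.5 and JUN at 37.3 ± 4.34 CPM per kb. FOSL1 did not overlap with IER3, whereas the ranges of IER3 and JUNB, of JUNB and EGR1, and of EGR1 and JUN overlapped. JUND had 12.9 ± 4.15, IER2 11.1 ± 4.72 and FOSL2 10.3 ± 1.95 CPM per kb, with ranges that overlapped from each to the next. FOS and FOSB were last, at 1.55 ± 0.389 and 0.179 ± 0.0660 CPM per kb, and overlapped neither each other nor FOSL2. The order changed with genotype and glucose, and most for EGR1, which ranked 4 of 10 in KMT2D-WT cells in glucose and 6 of 10 without. It ranked 7 of 10 in both KMT2D-KO groups, at 10.6 ± 2.70 CPM per kb in glucose and 9.97 ± 6.86 CPM per kb without glucose (n = 4 each), where its range overlapped that of FOSL2 in each medium. JUN ranked 5 of 10 in KMT2D-WT cells in glucose and 3 of 10 in each other group.

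**Figure D1:**
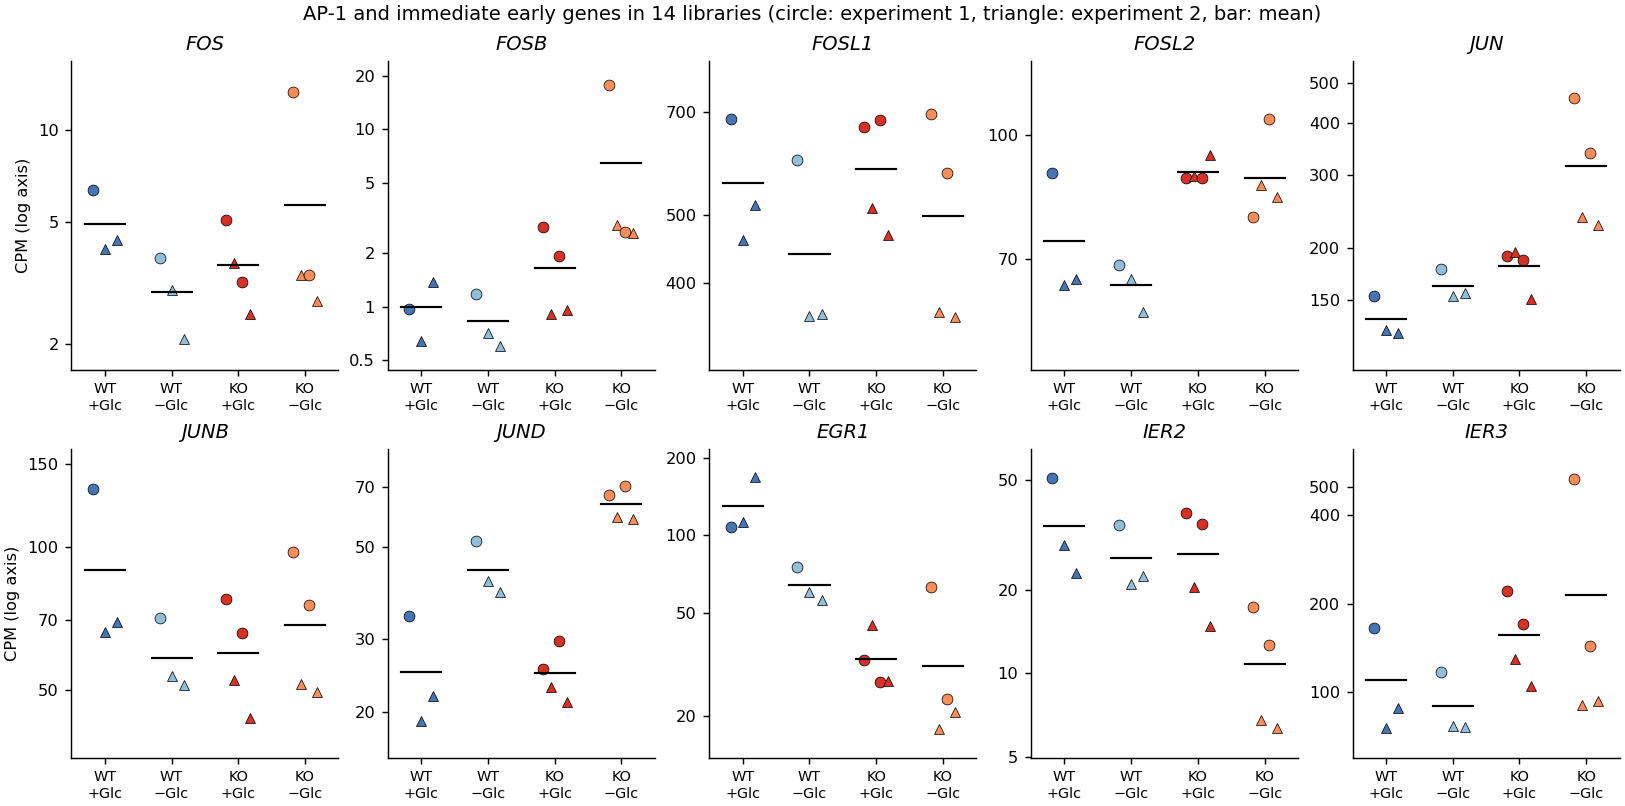
CPM of each of the 10 genes in 14 libraries on a log axis that differs between panels, by genotype (WT, KO) and glucose (+Glc, −Glc), with circles for experiment 1, triangles for experiment 2 and a bar at the group mean. EGR1 is lower in all 4 KO libraries in glucose (27.3 to 45.3 CPM) than in the 3 WT libraries (108 to 168 CPM), JUND is higher without glucose in both genotypes, and 1 KO library of experiment 1 stands above its group for FOS, FOSB, EGR1 and IER3 without glucose.

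Among the 10 members, 2 were higher and 3 were lower in KMT2D-KO than in KMT2D-WT cells in glucose at an adjusted p under 0.05 by edgeR's quasi-likelihood test, against 13% of all 20423 genes tested called higher and 11.7% called lower. Without glucose 4 were higher and 2 lower, against 25.9% and 24.9% of 16782 genes. With the close pairs of experiment 2 summed to 1 library each, only IER2 was called there (log2 fold change -1.43, adjusted p = 0.0315). Calls over all genes also fell in that fit, to 1517 higher and 1268 lower of 16867. Glucose deprivation of KMT2D-WT cells left 2 higher and 3 lower, against 7.15% and 7.58% of 17227 genes, and of KMT2D-KO cells 3 higher and 1 lower, against 14% and 16% of 16057 genes. The contrast of the KMT2D-KO effect between the media (without minus with glucose) passed for 2 members in the positive direction and 1 in the negative direction, against 4.73% and 6.54% of 18678 genes, and for none with the close pairs summed (5 at an unadjusted p under 0.05). The median log2 fold change over the members was -0.03 in glucose and 0.44 without glucose for KMT2D-KO against KMT2D-WT, where the medians over all genes were 0.02 and 0.0029. It was -0.33 for deprivation in KMT2D-WT cells and 0.17 in KMT2D-KO cells, where the medians over all genes were 0.01 and 0.0049. All 10 members passed the filter on low counts in each comparison. The comparisons share libraries (each KMT2D-KO or deprivation comparison uses groups of another), so their values are given side by side.

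**Figure D2:**
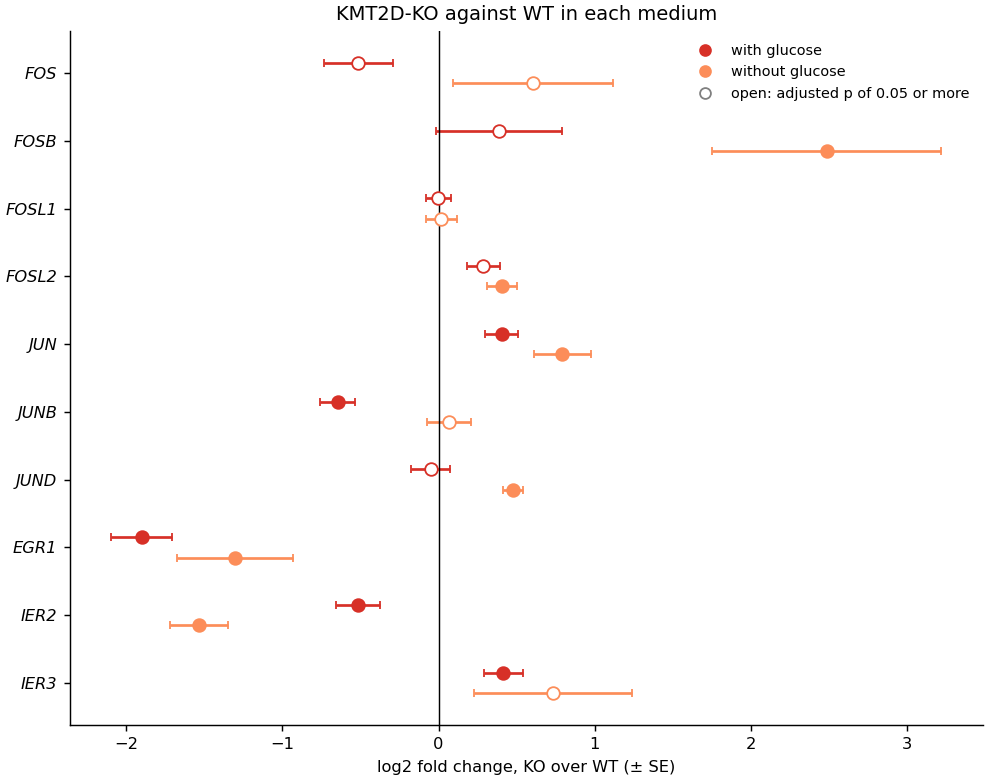
log2 fold change of KMT2D-KO over KMT2D-WT (x axis, ± SE derived from the F statistic of edgeR's quasi-likelihood test) for the 10 genes (y axis) with glucose (red) and without glucose (orange), filled where the adjusted p is under 0.05. EGR1 and IER2 lie left of 0 in both media and JUN right of 0 in both, while JUNB is filled with glucose only and FOSB, FOSL2 and JUND without glucose only.

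Of the FOS family, FOSL1 (FRA-1) made up between 93.4% and 96.7% of the summed CPM per kb in every library, FOSL2 between 2.85% and 5.86%, and FOS and FOSB each at most 1.08%. FOSL1 had 686, 461 and 517 CPM in KMT2D-WT cells and 666, 683, 511 and 467 CPM in KMT2D-KO cells in glucose. Glucose-deprived cells had 599.5, 359 and 361 CPM in KMT2D-WT cells and 697, 574, 364 and 358 CPM in KMT2D-KO cells. The libraries of experiment 1 were higher than those of experiment 2 in each group, and the genotypes overlapped in both media. The log2 fold change of FOSL1 between genotypes was -0.0014 (SE 0.08) with glucose and 0.02 (SE 0.10) without (adjusted p = 0.993 and 0.893 by edgeR's quasi-likelihood test). Glucose deprivation lowered FOSL1 in KMT2D-WT cells by a log2 fold change of -0.35 (SE 0.08, adjusted p = 0.0454), a call lost with the close pairs summed and without any 1 library of experiment 2. In KMT2D-KO cells the value was -0.29 (SE 0.11, adjusted p = 0.0818). It passed without the library labelled KO1 of experiment 1 (-0.37, adjusted p = 0.0127), which left only libraries close to KO2 without glucose, against both lines in glucose.

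FOSL2 (FRA-2) had 89.8, 65.0 and 66.1 CPM in KMT2D-WT and 88.4, 88.5, 88.9 and 94.4 CPM in KMT2D-KO cells in glucose. In glucose the log2 ratio of KMT2D-KO to KMT2D-WT was -0.02 in experiment 1 and 0.48 in experiment 2, where both KMT2D-KO libraries were higher. Without glucose FOSL2 had 68.8, 66.2 and 60.2 CPM in KMT2D-WT and 79.0, 104.7, 86.6 and 83.6 CPM in KMT2D-KO cells, so that all 4 KMT2D-KO libraries were above all 3 KMT2D-WT libraries. The log2 fold change between genotypes was 0.40 without glucose (SE 0.10, adjusted p = 0.0116 by edgeR's quasi-likelihood test) and 0.29 with glucose (SE 0.11, adjusted p = 0.0820). The call without glucose was lost with the close pairs summed (0.42, adjusted p = 0.134), without KMT2D-WT of experiment 1 (0.38, adjusted p = 0.0784) and without WT2 of experiment 2 (0.37, adjusted p = 0.0575), and the value in glucose passed without KMT2D-WT of experiment 1 (0.47, adjusted p = 0.0328). FOSL2 in glucose also passed for line KO2 alone (0.31, adjusted p = 0.0310) but not for KO1 alone (0.26, adjusted p = 0.0729).

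FOSB had the largest fold change among the members without glucose, at a low level. In KMT2D-WT cells it had 0.970, 0.636 and 1.37 CPM with glucose and 1.18, 0.711 and 0.599 CPM without. KMT2D-KO cells had 2.83, 1.94, 0.912 and 0.952 CPM with glucose and 17.9, 2.64, 2.89 and 2.59 CPM without. Without glucose all 4 KMT2D-KO libraries were above all KMT2D-WT libraries, and the library labelled KO1 of experiment 1 was 17.9 CPM where the 3 others held 2.59 to 2.89. The log2 fold change between genotypes without glucose was 2.49 (SE 0.73, adjusted p = 0.0267 by edgeR's quasi-likelihood test) and 1.72 without that library. With the close pairs summed it did not pass (2.63, adjusted p = 0.128). The call was lost without any 1 of the KMT2D-WT libraries or of the KMT2D-KO libraries of experiment 2 (log2 fold change 2.00 to 2.69, adjusted p = 0.0579 to 0.161). In glucose FOSB differed by a log2 fold change of 0.39 (SE 0.40, adjusted p = 0.545), with ratios of 1.30 in experiment 1 and -0.10 in experiment 2 on the log2 scale. Deprivation raised FOSB in KMT2D-KO cells by a log2 fold change of 1.81 (SE 0.54, adjusted p = 0.0389), but the groups overlapped and the call was lost with the close pairs summed (1.90, adjusted p = 0.0855). Leaving out any library except the one labelled KO2 of experiment 1 without glucose also ended it (1.02 without the library labelled KO1 of experiment 1, adjusted p = 0.0702, and 1.67 to 1.91 without each other, adjusted p = 0.0827 to 0.0921). The contrast of the KMT2D-KO effect between media was 2.11 on the log2 scale (SE 0.83, adjusted p = 0.119), and passed without KO2 of experiment 1 without glucose (2.39, adjusted p = 0.0286).

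FOS, the founding FOS protein, was low throughout. It had 6.37, 4.08 and 4.39 CPM with glucose and 3.81, 2.99 and 2.08 CPM without glucose in KMT2D-WT cells, and the 2 media did not overlap. In KMT2D-KO cells it had 5.10, 3.19, 3.68 and 2.50 CPM with glucose and 13.4, 3.36, 3.37 and 2.76 CPM without. No comparison of FOS passed the limit in the main fits. Between genotypes it gave a log2 fold change of -0.51 with glucose (SE 0.22, adjusted p = 0.128 by edgeR's quasi-likelihood test) and 0.60 without (SE 0.51, adjusted p = 0.360), the latter 0.08 without the library labelled KO1 of experiment 1. In glucose FOS passed for line KO2 alone (-0.84, adjusted p = 0.00378) but not for KO1 alone (-0.24, adjusted p = 0.377). In KMT2D-WT cells deprivation gave a log2 fold change of -0.73 (SE 0.18, adjusted p = 0.0541), the ratio being -0.74 in each experiment, and the value passed without either library of experiment 1 (-0.72 in both cases, adjusted p = 0.0212 and 0.0205). Those fits rest on experiment 2, with its close pair without glucose and a read layout that differed between the media. They called 4740 higher and 4004 lower of 18430 genes, and 4749 and 3998 of 18377.

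In the JUN family the make-up of the transcripts changed with genotype and glucose. JUNB gave the largest share of summed CPM per kb in KMT2D-WT cells in glucose, 48.2 ± 5.63% (mean ± SD, n = 3), with JUN at 38.8 ± 6.01% and JUND at 13.0 ± 0.765%. The lead of JUNB over JUN came mostly from KMT2D-WT of experiment 1 (54.7% against 32.0%). The 2 shares were close in WT1 (44.6% and 43.3%) and WT2 (45.2% and 41.3%). In KMT2D-KO cells in glucose JUN took 52.6 ± 3.88% and JUNB 33.9 ± 4.01% (n = 4). Without glucose JUN took 45.2 ± 2.15% in KMT2D-WT and 54.6 ± 3.07% in KMT2D-KO cells, JUNB 31.9 ± 1.56% and 23.5 ± 1.14%, and JUND 22.9 ± 0.659% and 21.8 ± 4.16%. The share of JUND was thus higher without glucose in both genotypes, and that of JUNB was lower in KMT2D-KO than in KMT2D-WT cells in both media. The shares are a description and were not tested.

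**Figure D3:**
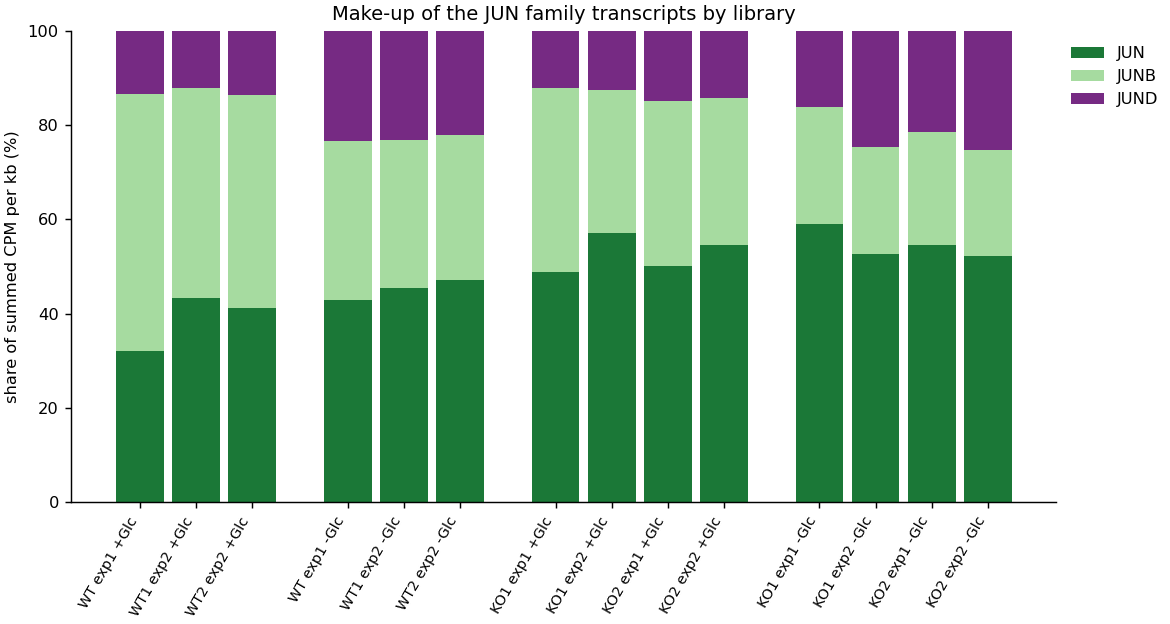
Share of the summed CPM per kb (y axis, %) of JUN (dark green), JUNB (light green) and JUND (purple) in each of the 14 libraries (x axis), as stacked bars. JUNB fills 54.7% in the WT library of experiment 1 with glucose and 22.5% at its lowest, in a KO library without glucose, and JUND is larger without glucose.

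JUN, the main partner of FOS proteins and a target of JNK, was higher in KMT2D-KO cells in both media. With glucose it had 153, 127 and 125 CPM in KMT2D-WT and 192, 187, 195 and 151 CPM in KMT2D-KO cells, and only the lowest KMT2D-KO library fell below the highest KMT2D-WT library. Without glucose it had 179, 153 and 156 CPM in KMT2D-WT and 460, 338, 238 and 227 CPM in KMT2D-KO cells, with no overlap. Between genotypes the log2 fold change was 0.40 with glucose (SE 0.10, adjusted p = 0.0208 by edgeR's quasi-likelihood test) and 0.79 without (SE 0.18, adjusted p = 0.00996), and the latter was 0.66 without the library labelled KO1 of experiment 1. With the close pairs summed the value without glucose did not pass (0.91, adjusted p = 0.0693). The call in glucose was lost without any 1 KMT2D-WT library (0.38 to 0.45, adjusted p = 0.0802 to 0.0979), and that without glucose was lost without KMT2D-WT of experiment 1 (0.53, adjusted p = 0.0650). The difference between the media, 0.42 on the log2 scale (SE 0.19), did not pass (adjusted p = 0.187). Deprivation raised JUN by a log2 fold change of 0.28 in KMT2D-WT (SE 0.04, adjusted p = 0.0257) and of 0.73 in KMT2D-KO cells (SE 0.17, adjusted p = 0.0185), with no overlap of the media in KMT2D-KO cells. The latter call was lost without KO1 or KO2 of experiment 1 or KO2 of experiment 2 in glucose, or the library labelled KO1 of experiment 2 without glucose (0.66 to 0.81, adjusted p = 0.0510 to 0.0732). The call in KMT2D-WT cells was lost with the close pairs summed and without any 1 library of experiment 2.

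JUNB, a JUN protein with weaker activation that is induced early, was lower in KMT2D-KO cells in glucose. It had 132, 66.3 and 69.3 CPM in KMT2D-WT and 77.6, 66.0, 52.4 and 43.7 CPM in KMT2D-KO cells in glucose, and the KMT2D-KO libraries were lower than KMT2D-WT within each experiment. In glucose-deprived cells it had 70.7, 53.5 and 51.1 CPM in KMT2D-WT and 97.7, 75.5, 51.5 and 49.5 CPM in KMT2D-KO cells, which overlapped. Between genotypes the log2 fold change was -0.65 with glucose (SE 0.11, adjusted p = 0.00351 by edgeR's quasi-likelihood test) and 0.07 without (SE 0.14, adjusted p = 0.714). The difference between them passed, at 0.74 on the log2 scale (SE 0.18, adjusted p = 0.0215). It was lost with the close pairs summed (0.80, adjusted p = 0.0961), without KMT2D-WT of experiment 1 in either medium (0.59 and 0.61, adjusted p = 0.107 and 0.104) and without WT2 of experiment 2 without glucose (0.76, adjusted p = 0.0515). The call in glucose was lost without KMT2D-WT of experiment 1 (-0.51, adjusted p = 0.0635), whose 132 CPM was the highest JUNB level. Deprivation lowered JUNB in KMT2D-WT cells by a log2 fold change of -0.54 (SE 0.11, adjusted p = 0.0390), and in KMT2D-KO cells the value was 0.15 (SE 0.12, adjusted p = 0.376). Summing the close pairs, or leaving out any 1 KMT2D-WT library of experiment 2, ended the KMT2D-WT call.

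JUND, the JUN protein that is expressed at rest, rose on glucose deprivation in both genotypes and further in KMT2D-KO cells. With glucose it had 34.1, 19.0 and 21.9 CPM in KMT2D-WT and 25.4, 29.6, 22.9 and 21.1 CPM in KMT2D-KO cells, which overlapped. On deprivation it had 51.7, 41.4 and 38.9 CPM in KMT2D-WT and 67.0, 70.4, 59.2 and 58.4 CPM in KMT2D-KO cells. The 4 groups thus fell into those with glucose, KMT2D-WT without and KMT2D-KO without, with no overlap between the last 2 or between media within a genotype. Deprivation gave a log2 fold change of 0.86 in KMT2D-WT (SE 0.10, adjusted p = 0.0193 by edgeR's quasi-likelihood test) and 1.35 in KMT2D-KO cells (SE 0.09, adjusted p = 3.84e-04). The latter passed in 16 of 17 alternative fits and ranged from 1.28 to 1.42 over them, whereas the KMT2D-WT call was lost with the close pairs summed and without any 1 library of experiment 2. Between genotypes JUND differed by 0.48 without glucose (SE 0.07, adjusted p = 0.00115) and by -0.05 with glucose (SE 0.13, adjusted p = 0.814). The call without glucose held in each of 7 fits that left out 1 library, all of which kept at least 1 close pair. It did not hold with the close pairs summed (0.47, adjusted p = 0.0664). The difference between the genotype effects in the 2 media was 0.55 on the log2 scale (SE 0.15, adjusted p = 0.0323). That call was lost with the close pairs summed (0.53, adjusted p = 0.190), without KMT2D-WT of experiment 1 in glucose (0.39, adjusted p = 0.161) and without each of 6 other libraries: WT2 of experiment 2 in glucose, all 3 KMT2D-WT libraries without glucose, and both KMT2D-KO libraries of experiment 2 without glucose (0.52 to 0.62, adjusted p = 0.0703 to 0.0967).

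EGR1, a zinc finger factor induced through ERK and SRF, had the largest change between genotypes in glucose among the members. It had 108, 113 and 168 CPM in KMT2D-WT cells and 32.9, 27.3, 45.3 and 27.4 CPM in KMT2D-KO cells, 130 ± 33.0 against 33.2 ± 8.46 CPM (mean ± SD, n = 3 and 4). All 4 KMT2D-KO libraries were below all 3 KMT2D-WT libraries, and the log2 ratio was -1.84 in experiment 1 and -1.95 in experiment 2. By the fit the log2 fold change was -1.90 (SE 0.19, adjusted p = 2.62e-04 by edgeR's quasi-likelihood test). It passed in all 17 alternative fits, between -2.20 and -1.66, which included each line alone and each library left out.

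Without glucose EGR1 had 75.7, 60.6 and 56.2 CPM in KMT2D-WT and 63.4, 23.3, 17.8 and 20.7 CPM in KMT2D-KO cells. The highest KMT2D-KO value, in the library labelled KO1 of experiment 1, lay within the KMT2D-WT range, and the 3 others lay below it. Between genotypes the log2 fold change was -1.30 (SE 0.37, adjusted p = 0.0232 by edgeR's quasi-likelihood test) and -1.67 without that library. It did not pass with the close pairs summed (-1.14, adjusted p = 0.176). The call was lost without either KMT2D-WT or either KMT2D-KO library of experiment 2 (-1.26 to -1.14, adjusted p = 0.0636 to 0.0908). Deprivation lowered EGR1 in KMT2D-WT cells by a log2 fold change of -1.01 (SE 0.22, adjusted p = 0.0398), with no overlap of the media. That call was lost with the close pairs summed and without any 1 library of experiment 2. In KMT2D-KO cells the log2 fold change was -0.22 (SE 0.41, adjusted p = 0.702), the ratio being 0.53 in experiment 1 and -0.92 in experiment 2. It was -0.71 without the library labelled KO1 of experiment 1 (adjusted p = 0.0422), where medium and line cannot be told apart: only libraries close to KO2 were left without glucose, against both lines in glucose. The contrast of the KMT2D-KO effect between media was 0.62 on the log2 scale (SE 0.42) and did not pass (adjusted p = 0.373).

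IER2, an immediate early nuclear protein, was lower in KMT2D-KO cells, and most so without glucose. It had 50.6, 29.0 and 23.0 CPM in KMT2D-WT and 37.8, 34.7, 20.6 and 14.8 CPM in KMT2D-KO cells in glucose. The groups overlapped because experiment 1 was higher than experiment 2 in both genotypes, and within each experiment KMT2D-KO was lower (log2 ratio -0.48 and -0.55). Without glucose it had 34.4, 21.1 and 22.5 CPM in KMT2D-WT and 17.4, 12.6, 6.79 and 6.32 CPM in KMT2D-KO cells, with no overlap. KMT2D-KO against KMT2D-WT gave a log2 fold change of -0.52 with glucose (SE 0.14, adjusted p = 0.0281 by edgeR's quasi-likelihood test) and -1.53 without (SE 0.18, adjusted p = 6.86e-04). The call in glucose was lost without KMT2D-WT of experiment 1, KO2 of experiment 1 or WT1 of experiment 2 (-0.56 to -0.41, adjusted p = 0.0516 to 0.132). The call without glucose passed in each of 7 fits that left out 1 library, all of which kept at least 1 close pair, and with the close pairs summed (-1.43, adjusted p = 0.0315).

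The KMT2D-KO effect on IER2 differed between the media by -0.99 on the log2 scale (SE 0.23, adjusted p = 0.0167 by edgeR's quasi-likelihood test). This call was lost with the close pairs summed (-0.90, adjusted p = 0.119), without KMT2D-WT of experiment 1 in glucose and without either KMT2D-KO library of experiment 2 without glucose (-0.96 to -0.91, adjusted p = 0.0518 to 0.0682). Deprivation lowered IER2 in KMT2D-KO cells by a log2 fold change of -1.38 (SE 0.17, adjusted p = 0.00206), a call kept in each of 8 fits without 1 library. In KMT2D-WT cells the value was -0.35 (SE 0.12, adjusted p = 0.0971). In KMT2D-KO cells IER2 thus fell on deprivation where JUND, JUN and FOSB rose.

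IER3, an immediate early gene linked to cell survival, had 165, 75.7 and 88.5 CPM in KMT2D-WT and 221, 171, 130 and 105 CPM in KMT2D-KO cells in glucose. The ranges overlapped, but KMT2D-KO was higher within each experiment (log2 ratio 0.25 and 0.52). The log2 fold change was 0.42 (SE 0.12, adjusted p = 0.0394 by edgeR's quasi-likelihood test), and the call was lost without any 1 of 5 libraries: the 3 KMT2D-WT libraries and the KO1 libraries of both experiments (0.31 to 0.51, adjusted p = 0.0724 to 0.156). In glucose IER3 was called for line KO1 alone (0.57, adjusted p = 2.74e-04) but not for KO2 alone (0.24, adjusted p = 0.0709). Without glucose it had 117, 76.4 and 76.1 CPM in KMT2D-WT and 531, 144, 90.4 and 93.4 CPM in KMT2D-KO cells. This gave a log2 fold change of 0.73 (SE 0.51, adjusted p = 0.265). It was 0.25 without the library labelled KO1 of experiment 1 and 0.98 with the close pairs summed (adjusted p = 0.366). Deprivation gave -0.23 in KMT2D-WT (SE 0.10, adjusted p = 0.157) and 0.19 in KMT2D-KO cells (SE 0.41, adjusted p = 0.738) on the log2 scale. The latter was -0.40 without that library (adjusted p = 0.0445), which again set libraries close to KO2 without glucose against both lines in glucose.

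**Figure D4:**
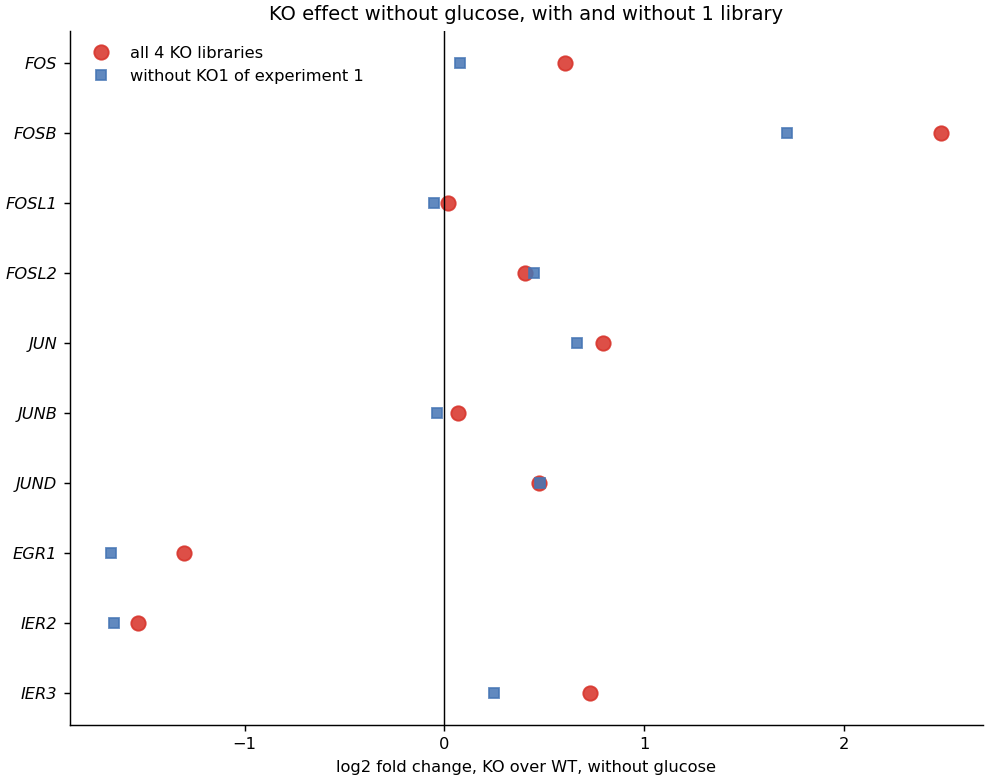
log2 fold change of KMT2D-KO over KMT2D-WT without glucose (x axis) for the 10 genes (y axis) with all 4 KO libraries (red circles) and without the library labelled KO1 of experiment 1 (blue squares), which leaves 3 libraries close to line KO2. FOS moves from 0.60 to 0.08, FOSB from 2.49 to 1.72, EGR1 from -1.30 to -1.67 and IER3 from 0.73 to 0.25, while JUND stays at 0.48.

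The comparison of media within each genotype rested on fewer libraries in KMT2D-WT cells. The 5 calls there (JUN and JUND higher, FOSL1, JUNB and EGR1 lower) were all lost with the close pairs summed (adjusted p = 0.173 to 0.234) and when WT1 or WT2 of experiment 2 was left out in either medium, where edgeR called 0 members (6 to 7 at an unadjusted p under 0.05) and at most 1 gene of all. Without either library of experiment 1, 6 members were called. Those fits rest on experiment 2, where the media also differed in read layout, and called 4740 higher and 4004 lower of 18430 genes, and 4749 and 3998 of 18377. Within experiments the direction was the same for all 5: the log2 ratios were 0.22 and 0.29 for JUN, 0.60 and 0.97 for JUND, -0.19 and -0.44 for FOSL1, -0.91 and -0.37 for JUNB, and -0.51 and -1.27 for EGR1 in experiments 1 and 2. In experiment 1 the media had the same read layout. In KMT2D-KO cells the ratios were 1.07 and 0.42 for JUN, 1.32 and 1.42 for JUND, -1.27 and -1.43 for IER2, and 2.11 and 1.56 for FOSB.

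**Figure D5:**
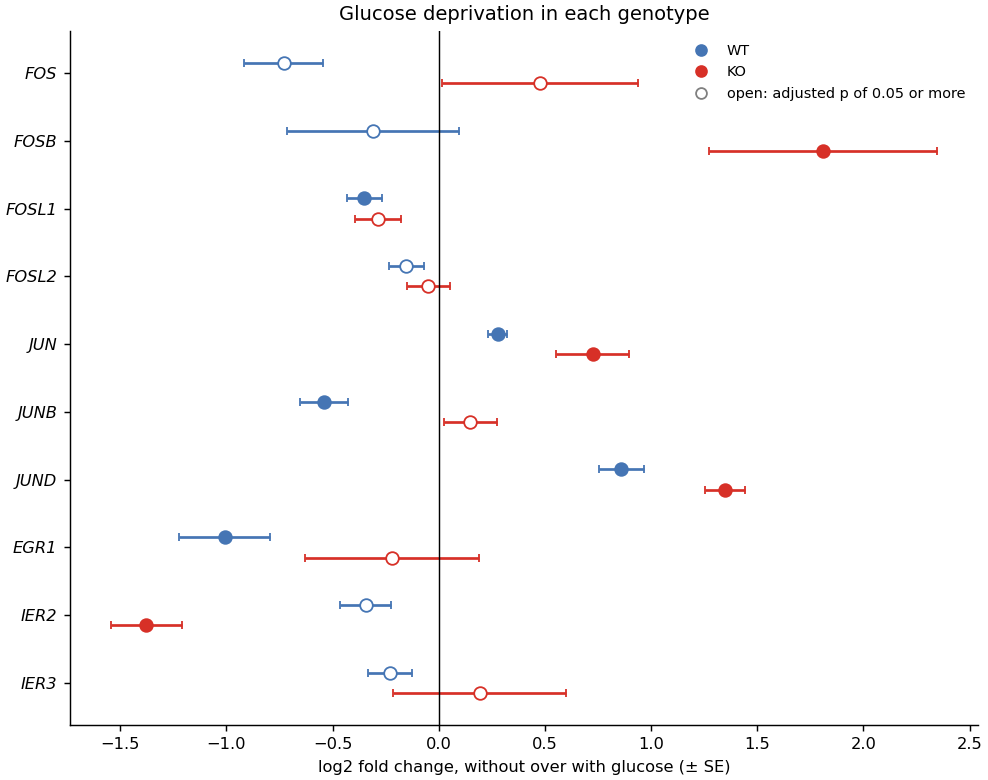
log2 fold change without over with glucose (x axis, ± SE derived from the F statistic of edgeR's quasi-likelihood test) for the 10 genes (y axis) in KMT2D-WT (blue) and KMT2D-KO cells (red), filled where the adjusted p is under 0.05. JUND and JUN are right of 0 in both genotypes, EGR1 and JUNB are filled left of 0 in WT cells, and IER2 is at -1.38 in KO cells.

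The other genes of the pathway were read from lists written from general knowledge with earlier results of these data known. Their counts are set against the shares of all genes called higher and lower, 13% and 11.7% with glucose, 25.9% and 24.9% without, 7.15% and 7.58% for deprivation in KMT2D-WT and 14% and 16% in KMT2D-KO cells, and 4.73% and 6.54% for the contrast between media. The medians over all genes lay between -0.0021 and 0.02. No count or value of these lists is given with the close pairs of experiment 2 summed, so those without glucose are less certain. Between genotypes without glucose, summing the pairs left 1517 higher and 1268 lower of all 16867 genes, against 4342 and 4179 of 16782. Of 13 other bZIP partners of AP-1, 10 were tested in glucose, and 3 were higher and 1 lower in KMT2D-KO cells (median log2 fold change 0.17). BATF3, a partner of JUN proteins, had 8.58 ± 1.56 CPM in KMT2D-KO against 2.48 ± 0.785 CPM in KMT2D-WT cells (mean ± SD, n = 4 and 3). MAFF, a small MAF protein without an activation domain, was the 1 that fell, from 69.2 ± 23.7 to 27.1 ± 6.79 CPM (log2 fold change -1.44, SE 0.11, adjusted p = 6.5e-05 by edgeR's quasi-likelihood test). Without glucose 5 of 9 were higher and 1 lower (median 0.77). ATF3, a stress-induced factor that binds JUN proteins, had 68.1 ± 5.65 CPM in KMT2D-KO against 15.8 ± 1.08 CPM in KMT2D-WT cells (2.06, SE 0.07, adjusted p = 3.1e-05), and its KMT2D-KO effect differed between the media by 1.53 on the log2 scale (SE 0.16, adjusted p = 2.77e-04). Deprivation raised 7 of 9 in KMT2D-KO cells (median 0.68), ATF3, MAFF and MAFG by the most, and 4 of 10 in KMT2D-WT cells (median 0.23).

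Of 36 other immediate early genes, 34 were tested in glucose, where 5 were higher and 9 lower in KMT2D-KO cells (median log2 fold change -0.31). KLF4, BTG2 and MYC were higher by the most (1.78, 1.67 and 0.82 on the log2 scale), and DUSP1, CCN2 and SOCS3 lower by the most (-1.45, -1.21 and -1.03). Without glucose 17 of 34 were higher and 4 lower (median 0.46), against 25.9% and 24.9% of all genes. DUSP1, the phosphatase that shuts off ERK, JNK and p38, went from 55.2 ± 7.05 CPM in KMT2D-WT and 21.4 ± 4.98 CPM in KMT2D-KO cells with glucose to 127 ± 19.6 and 252 ± 76.1 CPM without. The YAP target CCN1 had 3781, 1801, 1577 and 1558 CPM in KMT2D-KO and 386 ± 22.6 CPM in KMT2D-WT cells without glucose (log2 fold change 2.32, SE 0.31, adjusted p = 0.00105 by edgeR's quasi-likelihood test). KLF4, a factor of squamous differentiation, had 167 ± 38.6 against 13.8 ± 0.462 CPM (3.60, SE 0.19, adjusted p = 4.3e-05). The contrast of the KMT2D-KO effect between the media passed for 14 of 34 in the positive direction and for 1, BTG2, in the negative direction, with CCN2, CCN1 and DUSP1 the largest (2.67, 2.54 and 2.34 on the log2 scale). Deprivation raised 16 of 31 in KMT2D-KO cells and lowered 3 (median 0.85), and raised 10 and lowered 2 of 32 in KMT2D-WT cells (median 0.24).

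Among 22 kinases and SRF factors upstream, 2 were higher and 5 lower in KMT2D-KO cells in glucose (median log2 fold change -0.13), and 5 were higher and 4 lower without (median 0.04), against 25.9% and 24.9% of all genes. ELK3, an SRF cofactor, was lower in both media (-0.92 and -0.68), and SRF was higher without glucose (log2 fold change 1.03, SE 0.16, adjusted p = 0.00185 by edgeR's quasi-likelihood test). Of 14 repressors and turnover genes, 1 was higher and 5 lower in glucose (median -0.22), with the ERK pathway phosphatases DUSP5 and DUSP6 at -1.77 and -1.15. Without glucose 1 was higher and 4 lower (median -0.17), DUSP6 at -1.73 and NAB2, a corepressor of EGR1, at -0.81. DET1, a ubiquitin ligase adaptor for JUN, had the lowest value there but at most 1.34 CPM in any library without glucose.

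Of 32 AP-1 target genes of squamous cells, 25 were tested in each medium. In glucose 7 were higher and 3 lower in KMT2D-KO cells (median log2 fold change 0.12), and without glucose 11 were higher and 3 lower (median 0.77), against 13% and 11.7% of all genes in glucose and 25.9% and 24.9% without. The matrix metalloproteinase gene MMP3 was higher in glucose (log2 fold change 3.21, SE 0.71, adjusted p = 0.0105 by edgeR's quasi-likelihood test). Its level split by line, with 1651 and 1931 CPM in KO1 and 281 and 405 CPM in KO2, against 124 ± 52.9 CPM in KMT2D-WT cells. IL6, an inflammatory cytokine gene, was higher without glucose (39.8 ± 10.6 against 6.36 ± 0.976 CPM, 2.52, SE 0.16, adjusted p = 7.2e-05). HMOX1, heme oxygenase, was lower in both media (-2.43 and -2.51), as was PLAU, the urokinase gene (-0.73 and -0.63). SPRR2A had 0 CPM in all KMT2D-WT libraries and at most 0.841 CPM in KMT2D-KO libraries, too low for a fold change. Between genotypes without glucose, 5 of 7 squamous markers were also higher, and their part in the result was not tested.

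The genes most like each member over the 14 libraries were found by Pearson correlation of log2 CPM among 14267 genes, as a description over libraries that share experiments, media and genotypes. CDC42EP4 was closest to IER2 (r = 0.979), MICA to FOSL1 (r = 0.976), PPP3CC to JUND (r = 0.965), PLIN3 to IER3 (r = 0.963) and ARSB to EGR1 (r = 0.961). PKIG was closest to FOSB and MRPL37 to JUN (r = 0.959 each), SAC3D1 to JUNB (r = 0.931), RCC2 to FOSL2 (r = 0.927) and ORC1 to FOS (r = 0.901). No member was among the 3 genes most like another member. Between members r ran from -0.645 (FOSL2 and EGR1) to 0.871 (FOSB and JUN).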

How the data were processed

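PolyA RNA of SCC23 cells was sequenced in 14 libraries. The authors mapped reads to GRCh38 with HISAT2 and counted them per gene name with featureCounts 2.0.3 on the Ensembl 102 annotation (primary alignments, no strand), and deposited raw counts. The 59471 gene names included 39032 with any read in the 14 libraries. Depth was 15669154 to 62968057 counts per library.

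Groups were taken from the sample labels. Counts were tested with edgeR 4.0.16 (R 4.3.3; filterByExpr with minimum count 10, TMM, quasi-likelihood test, Benjamini-Hochberg over all genes tested, call at 0.05). SE is the absolute log2 fold change divided by the square root of the F statistic of that test. Each comparison was fitted on its own groups with experiment as covariate, whereas DESeq2 without a stated covariate is given in the methods of the study. The contrast of KMT2D-KO effects between media was fitted on all 14 libraries with experiment within each medium. Experiments pair the libraries of both genotypes: their differences between experiments correlated over 18678 genes at 0.899 with glucose and 0.727 without. CPM used TMM over all libraries, with 0.5 CPM added for log2 levels, and CPM per kb used the exonic bases of the count files.

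The 10 members and the gene lists were chosen with earlier results of these data known. Besides members and KMT2D, the text names from each list up to 3 called genes a direction, by size of log2 fold change, and for each member the most correlated genes with a mean of at least 1 CPM. A gene that this rule would name is not reported here. Promoters were from the RefSeq table (GRCh38.p14). Alternatives were DESeq2 1.42.0, RLE normalization, no filter on low counts, no experiment covariate, each experiment alone, halving the counts of the 4 libraries in which both mates counted, summed close pairs, 1 fit of all libraries, and each library left out. Lines KO1 and KO2 alone in glucose were added after seeing the data. The scripts were tested on simulated data. Other assays of the study were not analysed here.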

Additional observations from a re-analysis of the deposited data

Results flagged for a closer look

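Groups of 4 libraries were examined for a member whose highest or lowest library lay far from the others, 20 groups in all. The limit flags about 1 in 20 where values are independent and normal. That rate does not hold here, as the groups share libraries, mix experiments and hold close pairs. The library labelled KO1 of experiment 1 without glucose was far above the other KMT2D-KO libraries without glucose for 4 members. The share of all genes for which it stood as far apart was not counted, so this is not read as a trait of the members. This library was also the only KMT2D-KO library without glucose close to line KO1 by the genes that separated the lines, the 3 others being close to KO2, so the library and the line cannot be told apart. EGR1 had 63.4 CPM there against 17.8 to 23.3 CPM in the others, FOS 13.4 against 2.76 to 3.37 CPM, FOSB 17.9 against 2.59 to 2.89 CPM, and IER3 531 against 90.4 to 144 CPM. FOSL2 was highest in KO2 of experiment 2 with glucose, at 94.4 CPM against 88.4 to 88.9 CPM, in a group whose others were nearly equal.

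For 3 members the KMT2D-KO effect differed between the media by edgeR's test of the difference. It was more positive without glucose for JUNB (0.74 on the log2 scale) and JUND (0.55), and more negative for IER2 (-0.99). With the close pairs of experiment 2 without glucose summed, edgeR called none of the 3 (adjusted p = 0.0961, 0.190 and 0.119).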

How the results depend on the processing

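Of 860 log2 fold changes of members under the alternatives, 665 were counted as unchanged, 130 no longer passed, 23 newly passed, 39 changed sign, and 3 without a test moved by more than the spread between libraries. Unchanged meant the same direction and side of the limit or, without a test, a move within that spread. FOSB for deprivation in KMT2D-WT cells in experiment 1 alone was counted so, at 0.27 against -0.31. Members called in glucose numbered 5, and 1 in experiment 1 alone and 2 in experiment 2 alone. Of all genes, 137 were higher and 167 lower of 17620 in experiment 1 alone, and 1211 and 1125 of 19885 in experiment 2 alone. Without glucose the members called numbered 6, 1 with the close pairs summed (1517 higher and 1268 lower of all 16867 genes) and 0 in experiment 1 alone (3 at an unadjusted p under 0.05), where edgeR called no gene at all. For deprivation in KMT2D-WT cells they numbered 5, 3 in 1 fit of all libraries and 0 with the pairs summed (6 unadjusted), and experiment 1 alone allowed no test. For deprivation in KMT2D-KO cells they numbered 4 and 0 in experiment 1 alone (3 unadjusted). For the difference between media they numbered 3, 5 with no filter on low counts, and 0 with the pairs summed (5 unadjusted) or in experiment 1 alone (1 unadjusted). Leaving out 1 library gave 2 to 5 in glucose, 3 to 7 without, 0 to 6 and 2 to 6 for deprivation in KMT2D-WT and KMT2D-KO cells, and 0 to 4 for the difference.

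In the fit with no replicate block, experiment left out, the members called were 1 in glucose, 2 without, 0 for deprivation in KMT2D-WT (2 unadjusted), 1 in KMT2D-KO cells and 0 for the difference (1 unadjusted). Of all genes it called 495 higher and 476 lower of 20423 in glucose, and 1706 and 1953 of 16782 without. For deprivation it called 0 and 2 of 17227 in KMT2D-WT and 363 and 1102 of 16057 in KMT2D-KO cells. EGR1 stayed called in glucose (-1.96, adjusted p = 0.00743 by edgeR's quasi-likelihood test), FOSB and JUN without, and JUND for deprivation of KMT2D-KO cells.

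Among all genes, DESeq2 gave another split of higher and lower calls than edgeR: 4014 and 2199 against 1231 and 1305 for deprivation in KMT2D-WT cells, 4261 and 2790 against 2240 and 2573 in KMT2D-KO cells, and 1805 and 1668 against 884 and 1221 for the difference.

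Changes of sign fell on values that had not passed, and the cause was not tested. Between genotypes in glucose FOSL1 was 0.078 with no replicate block, 0.0063 with DESeq2, 0.0063 with RLE, 0.0076 with halved counts and 0.025 for KO1 alone. FOSL2 was -0.024 in experiment 1 alone, and FOSB -0.11 and JUND 0.096 in experiment 2 alone. Without glucose FOSL1 was -0.043 and JUNB -0.10 in experiment 2 alone. For deprivation in KMT2D-KO cells FOSL2 was 0.022 with DESeq2, 0.022 with RLE and 0.016 in experiment 1 alone, EGR1 was 0.0014 with pairs summed and 0.49 in experiment 1 alone, and FOS was -0.034 and IER3 -0.37 in experiment 2 alone. For the difference FOSL2 was -0.031 and IER3 -0.23 in experiment 2 alone. With each library left out, the ranges in glucose were -0.11 to 0.89 for FOSB, -0.038 to 0.040 for FOSL1 and -0.14 to 0.095 for JUND, and without glucose -0.053 to 0.053 for FOSL1 and -0.11 to 0.14 for JUNB. They were -0.58 to 0.14 for FOSB in KMT2D-WT deprivation, and -0.14 to 0.70 for FOS, -0.13 to 0.022 for FOSL2, -0.71 to 0.071 for EGR1 and -0.40 to 0.40 for IER3 in KMT2D-KO deprivation. For the difference they were -0.0030 to 0.098 for FOSL1, -0.053 to 0.22 for FOSL2 and -0.13 to 0.51 for IER3.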
